A study of Mus musculus with 19 samples.

Results

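CD8 T cells that carried the SV40-I receptor and were taken from malignant liver lesions at days 20 to 21 were compared with naive cells carrying the same receptor. The comparison rests on 6 of the 19 libraries of the series, 3 in each group, chosen by their titles. SV40-I is a transgenic T cell receptor specific for large T, the tumour antigen of the virus SV40. The other groups, used here for reference, were OT-I cells (receptor for an ovalbumin peptide, sorted on CD8 and Ly5.1) from lesions at days 20 to 21 and SV40-I cells of days 8 to 9 sorted as high or low for PD1, LAG3 and CD39. Column headings of the day 8 to 9 libraries carry the letters WT and KO while their labels give no genotype, so what separates those groups is not certain.

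All 6 libraries came from C57BL/6 mice and shared the SV40-I transgene, and cells were sorted straight into lysis reagent. Naive cells were sorted as CD8 positive and CD44 low, and those of days 20 to 21, called late cells below, as CD8 and Thy1.1 positive. Every library, including those titled as lesion cells, lists splenocytes as its source, which leaves the tissue uncertain. Labels number the replicates without saying whether they were separate mice, and the p-values therefore cover variation among these libraries that may be partly technical. Antigen exposure, location, transfer and sort gate differ between the groups together and cannot be told apart.

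A naive CD8 T cell circulates through lymphoid organs under the transcription factors TCF1, LEF1 and KLF2, which keep up homing receptors and the IL-7 receptor. Recognition of antigen replaces that state with one of division, killing and cytokine release. Where antigen persists, as in a tumour, T cells can enter a dysfunctional state with high PD1 and other inhibitory receptors, in which the HMG-box protein TOX is known to take part.

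Gene levels were expressed as CPM, gene counts relative to the TMM-scaled library total and tested with edgeR's quasi-likelihood test; a gene was called at a Benjamini-Hochberg adjusted p under 0.05. Level values are CPM in libraries 1, 2 and 3 of a group in that order, and differences are log2 fold changes, late minus naive, with their standard error (n = 3 libraries each). Library totals ran from 42485956 to 54195918 counts, so that a count of 0 allows up to 3 counts in a library, which is 0.0551 to 0.0744 CPM.

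Of 16404 genes tested, 1829 (11.1%) were called higher and 1125 (6.86%) lower in late cells. The changes were large: 884 of the higher calls passed 3 on the log2 scale and 598 passed 5, against 419 and 251 of the lower calls. The median was 2.85 among higher and -2.15 among lower calls, and 0.05 over all genes tested. The 3 late libraries lay wholly above the 3 naive ones for 3305 genes (20.1%) and wholly below for 2890 (17.6%). Groups did not overlap for 1783 of the 1829 higher and 1113 of the 1125 lower calls. Lack of overlap, where given below for called genes, thus describes them and adds little to the call. In the naive libraries 267 of the genes called higher had no count, and in the late libraries 95 of those called lower had none. Among the calls, 220 of the higher and 162 of the lower carry clone-based names and are not described. Without late library 2, which stands apart below in hepatocyte markers, 1417 genes were called higher and 911 lower. The counts were 1491 and 792 without late library 1 and 1505 and 845 without late library 3. Late library 1 differed most from the other late libraries in counts. Its chi-square over degrees of freedom was 231 and 252 against libraries 2 and 3, and 106 between libraries 2 and 3. The plot of change against level shows the spread of these calls.

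**Figure D1:**
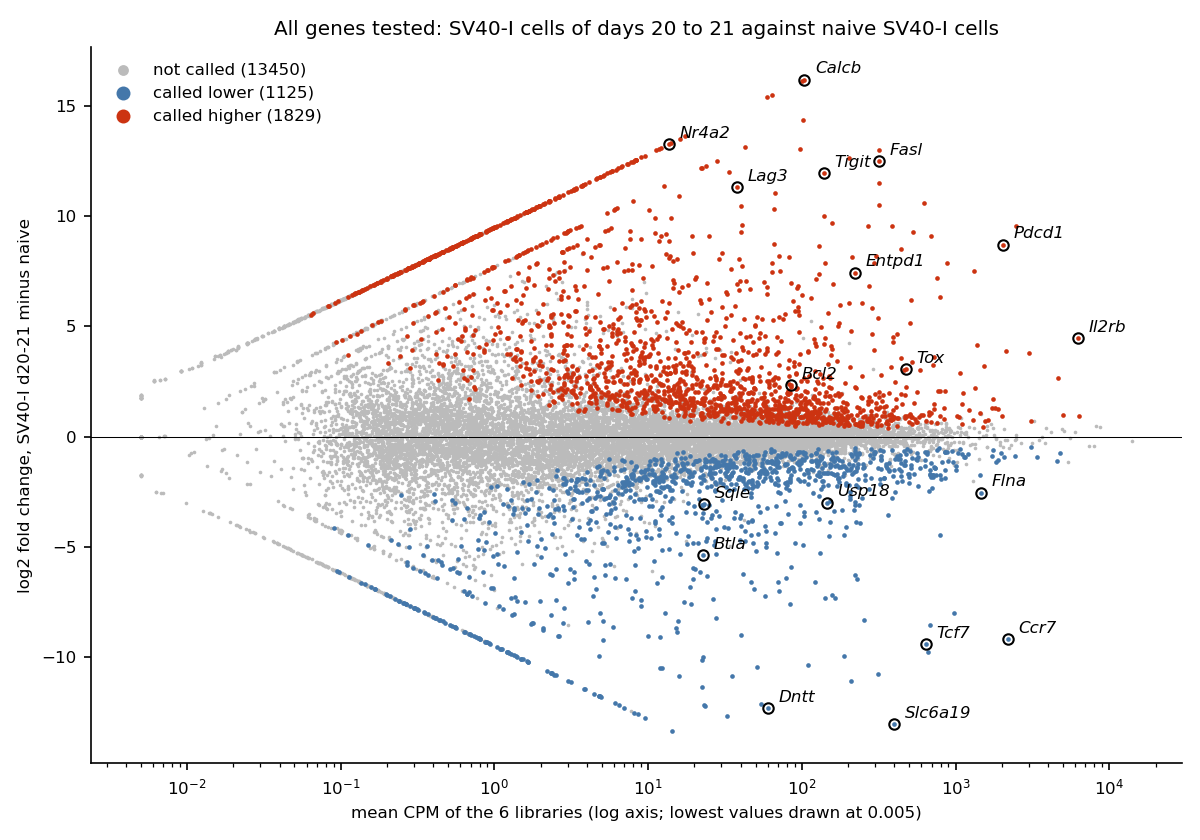
Log2 fold change of late minus naive SV40-I cells (vertical axis) against mean CPM of the 6 libraries (horizontal log axis) for the 16404 genes tested. Red points are the 1829 genes called higher, blue points the 1125 called lower and grey points the rest; circled genes are described in the text, with Fasl and Tigit among the largest rises and Slc6a19 and Tcf7 among the large falls.

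Defining CD8 T cell genes were high in all 6 libraries, with a summed level of 17544, 22016 and 17409 CPM in naive and 22237, 22746 and 24338 CPM in late cells. Hepatocyte markers moved with the comparison, with 12 of 13 called higher (median 7.57). Their sum was 12.3, 9.33 and 5.22 CPM in naive and 45.8, 1447 and 74.4 CPM in late libraries, so late library 2 stood apart. Macrophage markers summed to 284, 143 and 111 against 61.7, 1094 and 912 CPM (1 of 11 higher, Vsig4), and neutrophil markers to 17.9, 12.0 and 2.86 against 0.968, 382 and 106 CPM, their smallest adjusted p being 0.0546 for Ly6g. Of the dendritic markers 1 of 7 was called higher (Xcr1), and of the B cell markers 1 of 6 lower (Ighm), with sums of 2989, 2709 and 2738 CPM in naive and 1724, 1418 and 1234 CPM in late libraries. Endothelial and stromal markers gave 2 of 9 lower (Pecam1 and Col1a1), and erythroid and platelet markers 1 of 8 lower (Ppbp). The erythroid and platelet list had a median of 1.87, and its sum was 289, 51.7 and 29.5 CPM in naive and 104, 567 and 814 CPM in late libraries. CD4 T markers gave 1 of 4 higher (Zbtb7b) and 1 lower (Foxp3), and NK markers 2 of 6 higher (Klrb1c and Fcer1g), while Ncr1 reached at most 2.09 CPM in a late library. Mitochondrial genes took 0.227, 0.307 and 0.199% of counts in naive and 0.0509, 0.175 and 0.104% in late libraries. The part of other cells in the results was not tested, and in bulk libraries fewer cells of a type and less RNA per cell cannot be told apart.

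**Figure D2:**
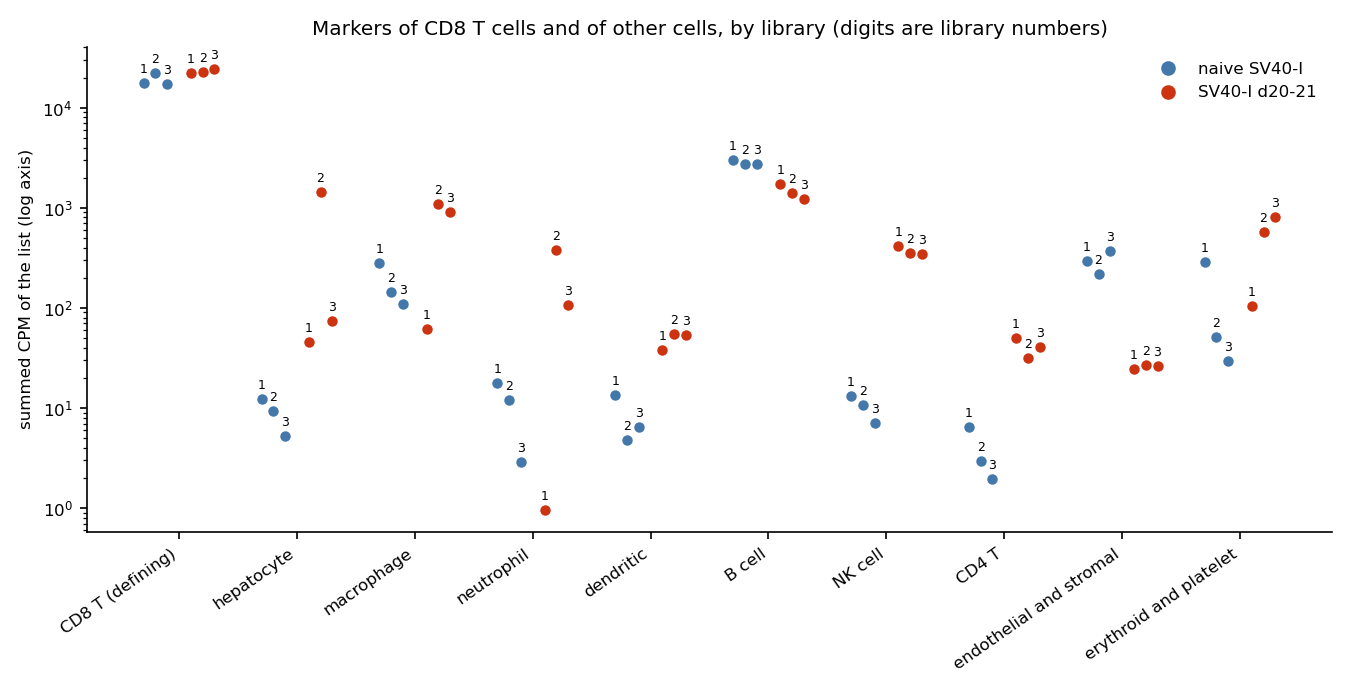
Summed CPM (log axis) of each marker list in the 3 naive (blue) and 3 late (red) SV40-I libraries, with the library number above each point. CD8 markers sum to 17409 CPM or more in every library, and the hepatocyte sum of late library 2, at 1447 CPM, lies above those of the other late libraries.

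Gene lists divided by role showed where the calls fell. By list, rises made up the largest shares among the genes of the sort markers PD1, LAG3 and CD39 (3 of 3), granule and killing genes (12 of 14 tested) and NK-type receptors (8 of 10), and falls among naive and quiescence genes (18 of 22). Lists of metabolism, replication and chromatin held fewer calls, as the plot by list shows. List counts below are to be read beside all genes tested, with 11.1% called higher and 6.86% lower.

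**Figure D3:**
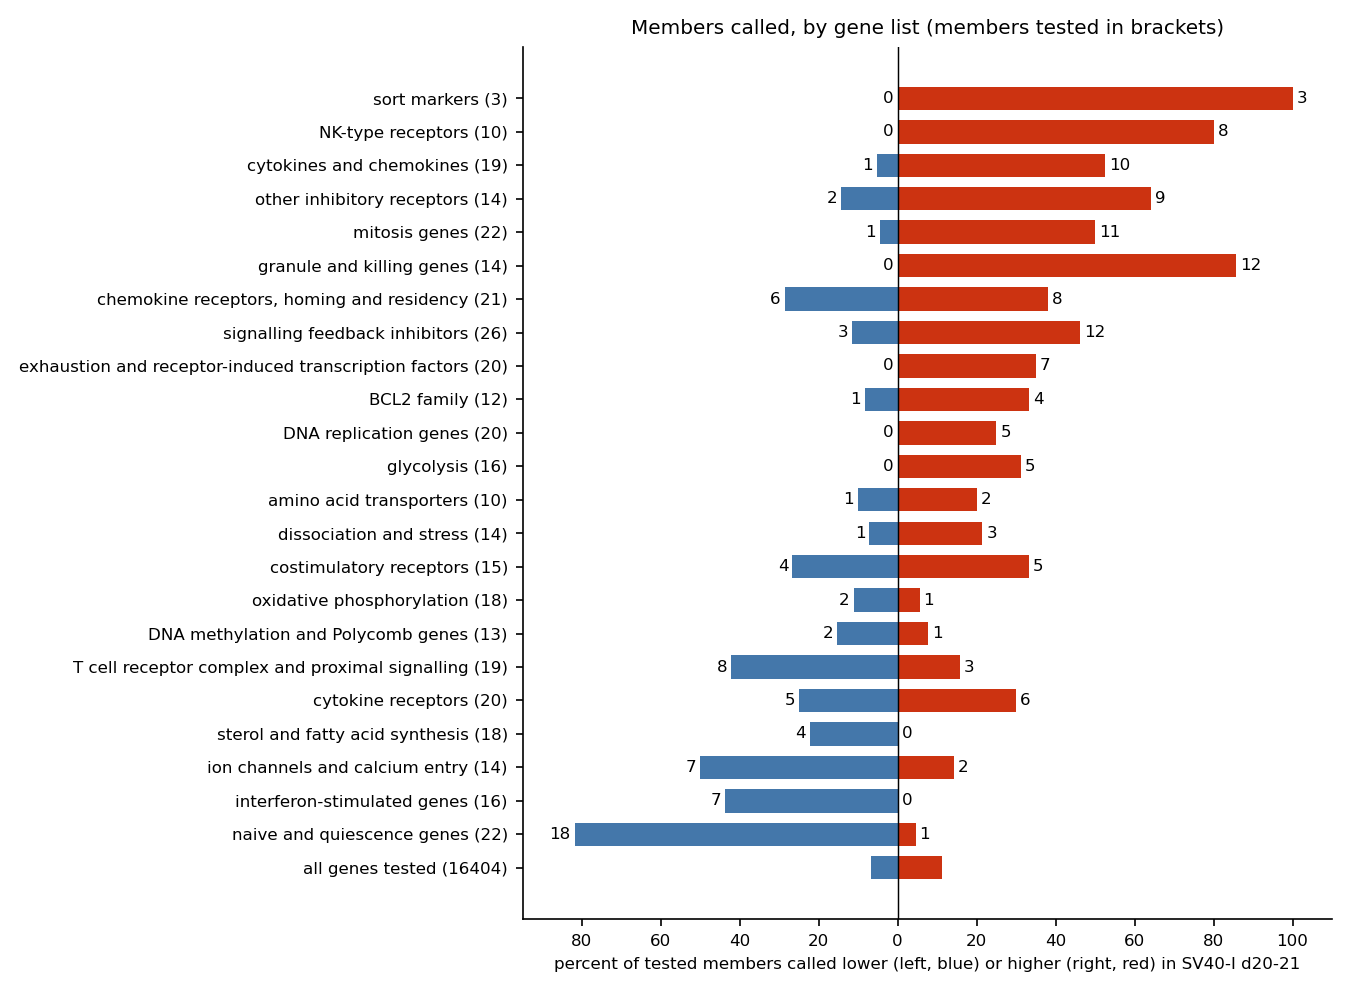
Percent of tested members of each gene list called higher (red, right) or lower (blue, left) in late against naive SV40-I cells, with counts at the bar ends and tested members in brackets, ordered by median log2 fold change. The bottom bar gives all 16404 genes tested, with 11.1% called higher and 6.86% lower.

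Tox (chromosome 4, 6686353 to 6991557, minus strand, GRCm38) stood at 91.7, 89.5 and 124 CPM in naive and at 702, 875 and 988 CPM in late libraries. The lowest late library was above the highest naive one, and the rise was 3.07 ± 0.37 (adjusted p = 1.07e-04). Naive cells thus already held Tox reads well above the counting limit. Its level was 24.6 ± 6.15 CPM (SD, n = 3) in OT-I cells of the same days and 553 ± 187 CPM in marker-high cells of days 8 to 9, from which late cells did not differ past the threshold (0.63, adjusted p = 0.305). Of the other TOX family and receptor-induced factors, Tox2 went from 0, 0.0217 and 0 to 7.17, 6.47 and 3.83 CPM. Its ratio was 851, with a 95% counting interval of 152 to 33641, since naive libraries held 1 to 3 reads in all.

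Genes of all 3 sort markers were higher in late cells, from low naive levels for Pdcd1 and Entpd1 and from near 0 for Lag3. Pdcd1 (chromosome 1, 94038305 to 94052553), which encodes the inhibitory receptor PD1, went from 5.12, 11.2 and 12.7 to 3528, 3133 and 5469.7 CPM, a rise of 8.71 ± 0.49 (adjusted p = 2.77e-07). Lag3, whose protein binds MHC class II, went from 0.0380, 0.0434 and 0 to 120.2, 55.3 and 50.6 CPM (11.29 ± 0.71). Entpd1, which encodes the ATP-cleaving ectoenzyme CD39, went from 2.16, 4.23 and 1.25 to 379, 440.3 and 508 CPM (7.44 ± 0.66, adjusted p = 9.99e-06). No library of one group reached the range of the other for any of the 3. The late cells were not sorted on these markers, and their list median was 8.71.

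Other inhibitory receptors were mostly higher as well: 9 of 14 rose and 2 fell (median 3.71), the latter count becoming 1 without naive library 1 or late library 1. Tigit (chromosome 16, 43648861 to 43664184), an inhibitory receptor that competes with CD226 for shared ligands, went from 0.0569, 0.109 and 0.0417 to 271, 245 and 323 CPM, a rise of 11.94 ± 0.63 (adjusted p = 1.72e-07). Havcr2, which encodes TIM3, went from 0.987, 0.0434 and 0 to 39.8, 102 and 64.7 CPM (7.61 ± 1.36, adjusted p = 0.00184). All late libraries were above all naive ones for both genes. Cd244, the SLAM family receptor 2B4, rose by 7.89 ± 1.39, and Cd200r1, a receptor for CD200, by 7.51 ± 1.49, with 52.3 CPM in late library 1 below the 207 and 173 CPM of the others. Late library 1 was also lowest for the macrophage marker sum (61.7 CPM), whose part in the Cd200r1 value was not tested. Ctla4, which competes with CD28 for its ligands, rose less, from 2.28, 4.601 and 3.07 to 38.4, 25.9 and 27.6 CPM (3.21 ± 0.51). Cd160 (2.50 ± 0.41) and Cd101 (4.22 ± 0.76) rose too. Btla (chromosome 16, 45224315 to 45252895), the inhibitory receptor for HVEM, went the other way, from 33.6, 29.0 and 71.2 to 0.968, 1.05 and 1.18 CPM (-5.38 ± 0.72, adjusted p = 2.18e-04). Late Btla also lay below OT-I cells of the same days (-4.62, adjusted p = 0.00112) and marker-high cells of days 8 to 9 (-3.33, adjusted p = 0.0119). The marker-high libraries stood at 17.4, 13.0 and 1.93 CPM of Btla, so that library 3 lay close to the late level.

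**Figure D4:**
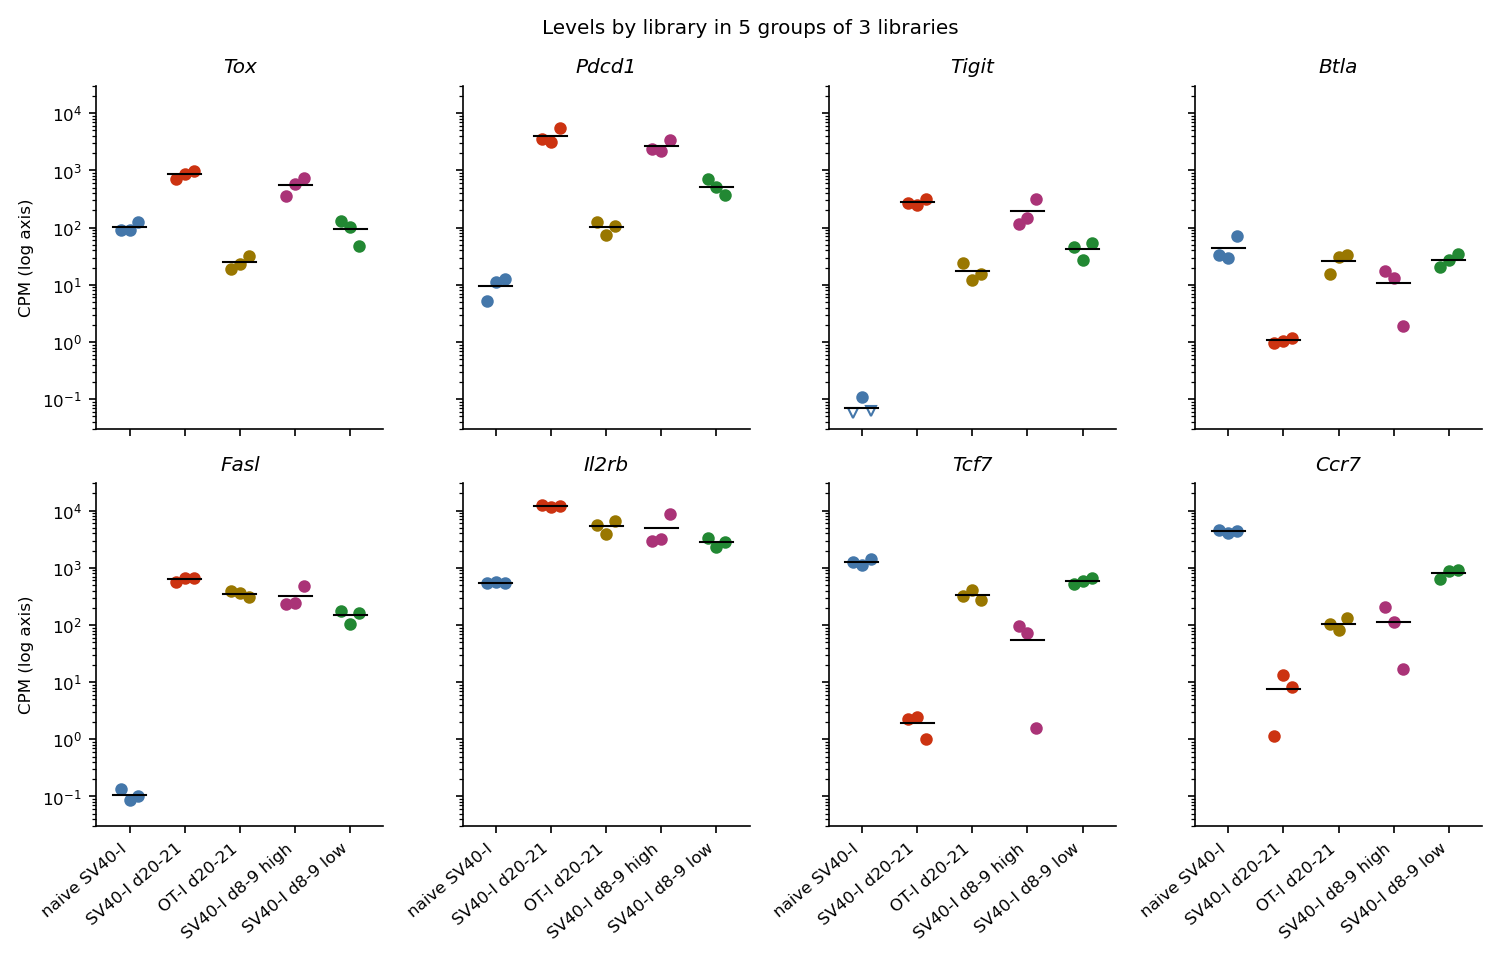
CPM by library (points, log axis) with group means (lines) for 8 genes in 5 groups of 3 libraries; open triangles mark values under 3 counts, drawn at that limit. Late SV40-I cells lie above naive cells for Tox, Pdcd1, Tigit, Fasl and Il2rb and below them for Btla, Tcf7 and Ccr7.

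Among 20 transcription factors linked to exhaustion or induced by receptor signals 7 rose and 13 did not pass (median 1.17). Bhlhe40 (chromosome 6, 108660629 to 108666925), a basic helix-loop-helix factor of activated T cells, went from 5.43, 3.02 and 3.69 to 210.5, 207 and 143 CPM (5.53 ± 0.41, adjusted p = 2.58e-06). Tbx21, which encodes the effector factor T-bet, went from 0.0949, 0.109 and 0.104 to 188, 25.4 and 31.0 CPM (9.60 ± 0.88). Late library 1 was far above the other late libraries for Tbx21, yet each of them exceeded every naive one. Id2, an inhibitor of E proteins that effector cells need, went from 104, 127 and 44.2 to 642, 1056 and 1156 CPM (3.38 ± 0.39), still below OT-I cells of the same days (-1.54, adjusted p = 0.0188).

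The receptor-induced NR4A and EGR factors did not move as a block. Nr4a2 (chromosome 2, 57106830 to 57124003), an orphan nuclear receptor, had no count in any naive library and stood at 44.4, 18.8 and 18.4 CPM in late cells, at least 1270-fold higher. Its relative Nr4a1 stood at 56.9, 49.7 and 65.8 CPM in naive and 14.3, 31.0 and 36.9 CPM in late libraries, a difference that missed the threshold (-1.07 ± 0.44, adjusted p = 0.111). For Nr4a1 the late libraries lay below the naive ones without overlap. Egr1, an immediate early gene, missed the threshold with overlapping groups: 16.4, 10.7 and 10.8 against 47.0, 15.4 and 9.44 CPM (0.92 ± 0.46, adjusted p = 0.188). Batf (0.91 ± 0.35, adjusted p = 0.0892) and Eomes (2.00 ± 0.95, adjusted p = 0.164) did not pass either, and Eomes ranged from 0.0993 to 6.06 CPM over the late libraries.

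Genes of the naive and quiescent state fell most uniformly, with 18 of 22 lower and 1 higher (median -6.21). Tcf7 (chromosome 11, 52252371 to 52283014), which encodes TCF1, went from 1283, 1099 and 1447 to 2.26, 2.44 and 1.01 CPM (-9.39 ± 1.16, adjusted p = 1.28e-04). Lef1 (chromosome 3, 131110471 to 131224356), its close relative, went from 1397, 1181 and 1413 to 1.51, 0.331 and 2.84 CPM (-9.74 ± 1.07, adjusted p = 5.37e-05). Both genes kept a few reads in every late library and stayed far below every naive one. OT-I cells of the same days kept 334 ± 64.7 CPM of Tcf7 and 329 ± 28.3 CPM of Lef1, and late SV40-I cells lay below them by -7.45 (adjusted p = 8.47e-04) and -7.72 (adjusted p = 3.76e-04). Satb1, a chromatin organiser, went from 56.4, 49.1 and 59.1 to 0, 0.165 and 0.365 CPM (-8.23 ± 0.98). Klf2, which drives the genes of lymphoid recirculation, went from 18.3, 33.5 and 12.6 to 0.223, 1.03 and 0.0215 CPM (-5.63 ± 0.98). Slfn2, a gene tied to T cell quiescence, fell least of these (-0.86 ± 0.18, adjusted p = 0.00482), with 973 to 1461 CPM in late libraries.

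Receptors that the quiescence factors keep up were low in late cells in parallel. Ccr7 (chromosome 11, 99144196 to 99155077), the chemokine receptor for lymph node entry, went from 4563, 4031 and 4474 to 1.14, 13.3 and 8.17 CPM (-9.17 ± 1.06, adjusted p = 7.54e-05). S1pr1, which guides exit from tissue into lymph and blood, went from 1459, 1127 and 1491 to 1.54, 9.10 and 0.387 CPM (-8.52 ± 1.26). For both genes the late libraries held at most 13.3 CPM and the naive ones at least 1127 CPM. Il7r, the IL-7 receptor chain, went from 57.2, 101 and 148 to 0, 0.0735 and 0.129 CPM (-10.46 ± 1.32, adjusted p = 1.40e-04). Bcl2, an anti-apoptotic gene placed in this list for its role in naive survival, was the member that rose, from 21.2, 37.4 and 26.3 to 95.9, 161 and 169 CPM (2.33 ± 0.52, adjusted p = 0.00740).

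Killing genes rose as a group, with 12 of 14 tested higher (median 2.27); Gzmd, Gzme and Gzmf did not pass the filter on low counts. Fasl (chromosome 1, 161780689 to 161788495), the death ligand for FAS, went from 0.133, 0.0868 and 0.104 to 555, 676 and 675 CPM (12.48 ± 0.46, adjusted p = 1.39e-08). Gzmb (chromosome 14, 56258838 to 56262260), the apoptosis-inducing serine protease of cytotoxic granules, went from 2.83, 2.34 and 2.40 to 935, 1588 and 1593 CPM (9.08 ± 0.55, adjusted p = 4.18e-07). The groups were far apart for both genes. Gzma rose by 7.50 ± 0.83 and Gzmk by 10.50 ± 0.84, both with late library 1 lowest of the late libraries (1162, 3114 and 3624 CPM for Gzma and 313, 700.5 and 898 CPM for Gzmk). Prf1, which encodes perforin, started from 324, 262 and 321 CPM and reached 1480.2, 1128 and 1238 CPM (2.09 ± 0.27, adjusted p = 1.78e-04). Ctsw, a cathepsin of cytotoxic cells, and Nkg7, a granule membrane protein, also had reads in naive cells and rose by 2.20 ± 0.23 and 2.68 ± 0.40. In naive cells, killing genes were thus near 0 (Fasl, Gzmk), low (Gzmb) or read at higher levels (Prf1, Ctsw, Nkg7). None of Fasl, Gzmb, Gzmk and Prf1 differed from OT-I cells of the same days past the threshold (adjusted p from 0.0792 to 0.563), whereas Gzma was higher in late SV40-I cells by 2.40 (adjusted p = 0.0382).

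Promoter sequence bears on these genes because AP-1 and NFAT, activated by the T cell receptor, act at promoters of effector genes. The 160 bases before the start site of Gzmb and of the SLAM family receptor gene Slamf7 are shown because both rose and both windows hold an AP-1 match (TGANTCA), in capitals; Slamf7 also holds the NFAT core TGGAAA, in capitals. Sequences are from RefSeq on GRCm38.p6, written 5′ to 3′ on the gene's strand (minus for both), at chr14:56262335-56262494 and chr1:171649000-171649159.
Gzmb: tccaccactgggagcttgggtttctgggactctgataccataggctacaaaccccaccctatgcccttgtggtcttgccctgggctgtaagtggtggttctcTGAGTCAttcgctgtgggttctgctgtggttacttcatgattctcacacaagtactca
Slamf7: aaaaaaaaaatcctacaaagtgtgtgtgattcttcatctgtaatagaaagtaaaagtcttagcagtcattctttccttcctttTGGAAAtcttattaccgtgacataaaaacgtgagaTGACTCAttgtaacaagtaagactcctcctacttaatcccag

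Over whole RefSeq promoter windows (from 250 bases before to 50 after the start, both strands searched), AP-1 letters occurred in 8.66% of genes called higher, 6.13% of genes called lower and 6.50% of all genes tested with a promoter. Promoters were matched by symbol for 1235 of 1829 higher, 751 of 1125 lower and 9869 of 16404 tested genes. The NFAT core occurred in 22.4, 20.1 and 20% of the same sets, the TCF and LEF motif CTTTGAT in 2.83, 3.20 and 3.16%, the NR4A motif AAAGGTCA in 1.13, 2.00 and 1.41%, the EGR motif GCGGGGGCG in 6.23, 7.99 and 6.05% and the E-box CACGTG in 9.47, 12.5 and 11.2%. These shares lay close together, and a match describes letters, not binding. Of the granule and killing genes, 13 had a promoter window, with AP-1 letters in 1 and the NFAT core in 6. Of the costimulatory receptors, 10 had one, with AP-1 letters in 2 and the NFAT core in 3. Gzmb and Slamf7 were thus picked for their matches and do not stand for their lists.

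Cytokines and chemokines gave 10 of 19 tested members higher (median 5.44, or 4.85 with genes at 0 in naive libraries set to their bound) and 1 lower; Areg did not pass the filter. Ccl4 (chromosome 11, 83662584 to 83664683), a chemokine that attracts T cells and macrophages, also called MIP-1β, went from 0.493, 1.11 and 0.814 to 1195, 1559 and 995 CPM (10.60 ± 0.43, adjusted p = 2.32e-08). Its neighbour Ccl3 went from 0.342, 0.239 and 0.0626 to 574, 833 and 494 CPM (11.50 ± 0.65). Both lay above OT-I cells of the same days, by 3.59 (adjusted p = 2.06e-05) and 5.27 (adjusted p = 3.19e-05). Ccl5, which encodes the chemokine RANTES, rose from 7.04, 9.87 and 3.07 to 3309, 4612 and 6982 CPM (9.54 ± 0.89) without a called difference from OT-I cells (0.01, adjusted p = 1.00). Ifng, the main macrophage-activating cytokine of CD8 T cells, went from 0.0380, 0.0651 and 0.0626 to 27.3, 31.6 and 22.6 CPM (8.88 ± 0.83, adjusted p = 1.32e-05). Ifng stood at 86.9 ± 61.1 CPM in marker-high and 395 ± 123 CPM in marker-low cells of days 8 to 9 (SD, n = 3 each).

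Csf2, which encodes GM-CSF, had no count in naive libraries and stood at 3.03, 4.59 and 2.71 CPM in late ones, at least 172-fold higher. Il10, an anti-inflammatory cytokine, was low but higher in late cells, at 0.0569, 0.0434 and 0.0209 against 0.248, 1.36 and 2.13 CPM (4.85 ± 1.12, adjusted p = 0.00824). Both cytokines thus remained at low levels in late cells, and for Il10, which macrophages also make, late library 1 was lowest, as it was for the macrophage marker sum, whose part was not tested. Lta, which encodes lymphotoxin alpha, was the lower member, at 44.6, 36.6 and 30.9 against 6.77, 8.16 and 0.838 CPM (-2.83 ± 0.92, adjusted p = 0.0486). Leaving out any 1 of the 6 libraries ended the Lta call, with adjusted p from 0.0692 to 0.109, naive library 1 and late library 3 included.

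Homing, chemokine receptor and residency genes split, with 8 of 21 higher and 6 lower (median 1.70). Rgs1 (chromosome 1, 144242296 to 144249242), a regulator that dampens chemokine receptor signals and marks resident T cells, went from 1.06, 2.08 and 0.438 to 30.3, 57.9 and 52.8 CPM (5.30 ± 0.65, adjusted p = 1.13e-04). Cxcr6, a receptor that retains T cells in liver, went from 165, 143 and 140.1 to 1807, 3515 and 2538 CPM (4.13 ± 0.53). Cxcr3, the receptor for interferon-induced chemokines, rose by 4.54 ± 0.62. Both receptors were higher in all 3 late libraries than in any naive one. Itga1, which encodes the collagen-binding integrin CD49a, had no naive count and stood at 7.99, 14.7 and 23.6 CPM in late cells, at least 769-fold higher. Zfp683, which encodes the residency factor HOBIT, rose from 3.42, 3.08 and 5.42 to 171, 78.8 and 59.3 CPM (4.70 ± 0.64).

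Other homing and residency genes fell. Itgb7 (chromosome 15, 102215995 to 102231944), the integrin beta chain of gut homing, went from 467, 299.5 and 306 to 29.3, 9.28 and 10.9 CPM (-4.44 ± 0.63, adjusted p = 3.25e-04). Its partner gene Itgae, which encodes CD103, went from 488, 392 and 649 to 0.521, 0.974 and 3.31 CPM (-8.31 ± 1.34, adjusted p = 9.04e-04). Ccr9, a gut-homing receptor, went from 333, 328 and 465 to 0.0744, 0.0919 and 0.989 CPM (-9.92 ± 1.84). None of the 3 overlapped between the groups, as was so for 1113 of the 1125 genes called lower. Cd69, an early activation antigen that also holds cells in tissue, was lower in late cells at 10.3, 46.1 and 21.8 against 127, 134 and 133 CPM (-2.33 ± 0.50, adjusted p = 0.00627). Cd44, whose low surface level was the naive sort gate, stood at 10.3, 0.846 and 5.95 CPM in naive and 106, 154 and 137 CPM in late cells, so that gate bears on its difference.

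Costimulatory receptors changed in both directions, 5 of 15 higher and 4 lower (median -0.08). Slamf7 (chromosome 1, 171632403 to 171653035), an activating SLAM receptor, went from 2.52, 2.67 and 3.80 to 88.5, 109 and 89.6 CPM (5.00 ± 0.26, adjusted p = 1.66e-07). Tnfrsf9, which encodes 4-1BB and is induced by antigen, went from 29.1, 15.5 and 13.2 to 1894, 1477 and 1322 CPM (6.34 ± 0.40, adjusted p = 6.49e-07). It stood at 23.1 ± 8.99 CPM in OT-I cells, close to the naive level, and 6.08 below late cells (adjusted p = 3.91e-06). Tnfrsf1b, a receptor for TNF, rose by 3.21 ± 0.36. Tnfrsf25 (chromosome 4, 152115934 to 152120119), the receptor for TL1A, went from 43.4, 41.4 and 49.2 to 0, 0 and 0.0430 CPM, 3154 times lower with a 95% counting interval of 873 to 26045. Cd28, the founding costimulatory receptor, went from 134, 150.1 and 162 to 3.05, 18.2 and 17.5 CPM (-3.52 ± 0.81, adjusted p = 0.00895). OT-I cells kept 200.02 ± 17.1 CPM of Cd28. Slamf6, known from progenitor cells among exhausted T cells, went from 223, 240.4 and 256 to 0.893, 4.13 and 2.49 CPM (-6.57 ± 1.03).

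Receptors first described on NK cells rose in 8 of 10 cases (median 6.61, or 6.58 with genes at 0 set to their bound). Klrb1c (chromosome 6, 128778485 to 128789215), which encodes NK1.1, went from 1.99, 1.63 and 1.56 to 264, 126 and 161 CPM (6.73 ± 0.52, adjusted p = 3.37e-06). Klrk1, which encodes the activating receptor NKG2D, went from 1.77, 1.06 and 1.06 to 73.8, 155 and 122 CPM (6.49 ± 0.50). Klrc1, the gene of the inhibitory receptor chain NKG2A, spanned 97.5 to 505 CPM in late libraries against at most 0.695 CPM in naive ones (10.02 ± 1.02). Klre1 rose by 8.17 ± 0.96. Ncr1, which encodes the NK receptor NKp46, did not follow them, at 0, 0.404 and 2.09 CPM in late libraries. The 6 NK cell markers summed to 13.1, 10.7 and 7.03 CPM in naive and 418, 355 and 345 CPM in late libraries. That rise lay in Klrb1c and Fcer1g, an adaptor of activating receptors, at 154, 226 and 176 CPM. The NK receptor gene Klra4 was at 0 in every late library, and Klra8 reached at most 0.257 CPM.

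Of 20 cytokine receptor genes 6 rose and 5 fell (median -0.59). Il2rb (chromosome 15, 78479256 to 78495271), the beta chain shared by the IL-2 and IL-15 receptors, went from 545, 553 and 548 to 12319, 11635 and 12014 CPM (4.45 ± 0.39, adjusted p = 8.75e-06). For Il2rb the libraries of each group lay close together, and OT-I cells stood at 5317 ± 1336 CPM. Il12rb1 (2.98 ± 0.29) and Il10ra (2.76 ± 0.36), chains of the IL-12 and IL-10 receptors, rose. Il4ra (chromosome 7, 125552120 to 125579474), the IL-4 receptor chain, went from 749, 523 and 752 to 201, 149 and 137 CPM (-2.06 ± 0.28, adjusted p = 2.46e-04). Together with Il7r this placed late cells high for an IL-2 and IL-15 receptor chain and low for chains of the IL-4 and IL-7 receptors.

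The T cell receptor complex and its proximal signalling genes gave 3 of 19 higher and 8 lower (median -0.38); without naive library 1 or late library 1 the lower calls were 5. Zap70 (chromosome 1, 36761798 to 36782818), the kinase that binds the phosphorylated receptor, went from 277, 213 and 224 to 714, 525 and 413 CPM (1.21 ± 0.18, adjusted p = 5.58e-04). Cd3e, a signalling chain of the complex, rose by 0.98 ± 0.18 and the Src kinase gene Fyn by 1.32 ± 0.25. Lat (chromosome 7, 126363824 to 126369570), the adaptor that ZAP70 phosphorylates, went the other way, from 1124, 1326 and 974 to 309, 359.8 and 355 CPM (-1.74 ± 0.32, adjusted p = 0.00241). The kinase and the adaptor it acts on thus changed in opposite directions, with no overlap between the groups for either. Cd8b1, the coreceptor beta chain, went from 6207, 7361 and 5259 to 2802, 3007 and 2972 CPM (-1.10 ± 0.21). Its partner Cd8a stood at 3498, 3471 and 3073 against 5292, 4179 and 3746 CPM and did not pass (0.40 ± 0.17, adjusted p = 0.126).

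Genes that restrain receptor signals rose in 12 of 26 cases and fell in 3 (median 1.36). Ubash3b (chromosome 9, 41011098 to 41161697), a phosphatase of the ZAP70 pathway also called STS-1, went from 1.101, 1.41 and 1.88 to 69.7, 69.2 and 64.1 CPM (5.53 ± 0.38, adjusted p = 1.36e-06). Spry1, a Sprouty inhibitor of the RAS and MAP kinase pathway, had no naive count and stood at 20.2, 15.6 and 13.9 CPM, at least 802-fold higher. Dusp6, an ERK phosphatase, went from 90.6, 71.8 and 84.8 to 768, 551 and 394 CPM (2.79 ± 0.37). Naive and late libraries were apart for all 3 inhibitors. Cish, a SOCS family member induced by IL-2, rose by 4.67 ± 0.35, and Rgs16, a regulator of G protein signalling, from at most 0.480 CPM to 60.8, 68.4 and 52.4 CPM (8.32 ± 1.15). Socs3, another family member, fell from 38.0, 38.6 and 36.8 to 2.68, 0.772 and 0.559 CPM (-4.82 ± 0.79). Both diacylglycerol kinases of T cells were called, in opposite directions. Dgka (chromosome 10, 128720134 to 128744855) went from 1223, 959.7 and 1251 to 247, 199 and 179 CPM (-2.46 ± 0.17, adjusted p = 1.23e-06), and Dgkz from 80.2, 85.3 and 77.7 to 446, 369 and 296 CPM (2.19 ± 0.27, adjusted p = 1.27e-04).

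Ion channel and calcium entry genes fell in 7 of 14 cases and rose in 2 (median -1.10). Without naive library 3 the lower calls were 4, and without naive library 1, naive library 3 or late library 2 the higher call was 1. Orai2 (chromosome 5, 136147459 to 136170713), a pore subunit of store-operated calcium channels, went from 330.3, 266 and 349.8 to 76.0, 58.8 and 75.1 CPM (-2.17 ± 0.28, adjusted p = 1.79e-04). Stim1, the sensor of calcium stores that opens them, fell by 1.34 on the log2 scale (SE 0.24, adjusted p = 0.00180). Kcnn4, a calcium-activated potassium channel, went from 33.6, 38.8 and 31.9 to 1.91, 0.937 and 0.709 CPM (-4.87 ± 1.02). Kcnk5 (chromosome 14, 20140057 to 20181809), a background potassium channel, went from 1.37, 4.41 and 1.94 to 328, 361 and 256 CPM (6.94 ± 0.51, adjusted p = 2.39e-06). Potassium channel genes thus changed in opposite directions.

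Of 22 mitosis genes 11 rose, 1 fell and 10 did not pass (median 2.68), with 7 rises when the 6 libraries were fitted alone. Ccnb2 (chromosome 9, 70407692 to 70421547), cyclin B2, went from 1.39, 0.521 and 1.11 to 11.9, 15.8 and 17.025 CPM (3.89 ± 0.44, adjusted p = 7.06e-05). Cdk1, its kinase partner, went from 2.88, 1.19 and 1.15 to 11.4, 14.2 and 17.5 CPM (3.04 ± 0.46), and Plk1, a mitotic kinase, rose by 2.80 ± 0.32. These late levels lay far below those of marker-high cells of days 8 to 9, which stood at 295 ± 88.2, 264 ± 129 and 395 ± 152 CPM (SD, n = 3). Late cells were lower by -4.31 for Ccnb2 (adjusted p = 2.54e-04), -4.20 for Cdk1 (adjusted p = 4.66e-04) and -4.25 for Plk1 (adjusted p = 5.25e-05). Kif23 (chromosome 9, 61915905 to 61946774), a kinesin of cytokinesis, was the member that fell against naive cells, from 48.4, 48.6 and 40.4 to 1.61, 0.368 and 3.18 CPM (-4.73 ± 0.67, adjusted p = 3.29e-04). It stood at 6.52 ± 2.33 CPM in marker-high and 5.11 ± 2.69 CPM in marker-low cells of days 8 to 9 (SD, n = 3 each). Unlike Ccnb2, Cdk1 and Plk1, Kif23 was thus lower in marker-high than in naive cells.

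Of 20 DNA replication genes 5 rose and 15 did not pass (median 0.37). The rises were 2 without naive library 2, 3 without naive library 3, late library 1 or late library 3, and 3 with the 6 libraries alone. In addition, 2 members were called lower without late library 1, and 1 was called lower without late library 2, with scaling by library totals or with a filter of 5 CPM in 3 libraries. Rrm2 (chromosome 12, 24708241 to 24714146), a subunit of the enzyme that makes deoxyribonucleotides, went from 9.81, 4.38 and 2.67 to 25.7, 26.3 and 24.4 CPM (2.18 ± 0.38, adjusted p = 0.00144). Tyms, thymidylate synthase, went from 10.2, 10.96 and 5.84 to 25.8, 35.7 and 28.9 CPM (1.74 ± 0.38, adjusted p = 0.00702). Against marker-high cells of days 8 to 9 both were lower in late cells, by -4.19 (adjusted p = 1.77e-04) and -2.47 (adjusted p = 0.00323).

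**Figure D5:**
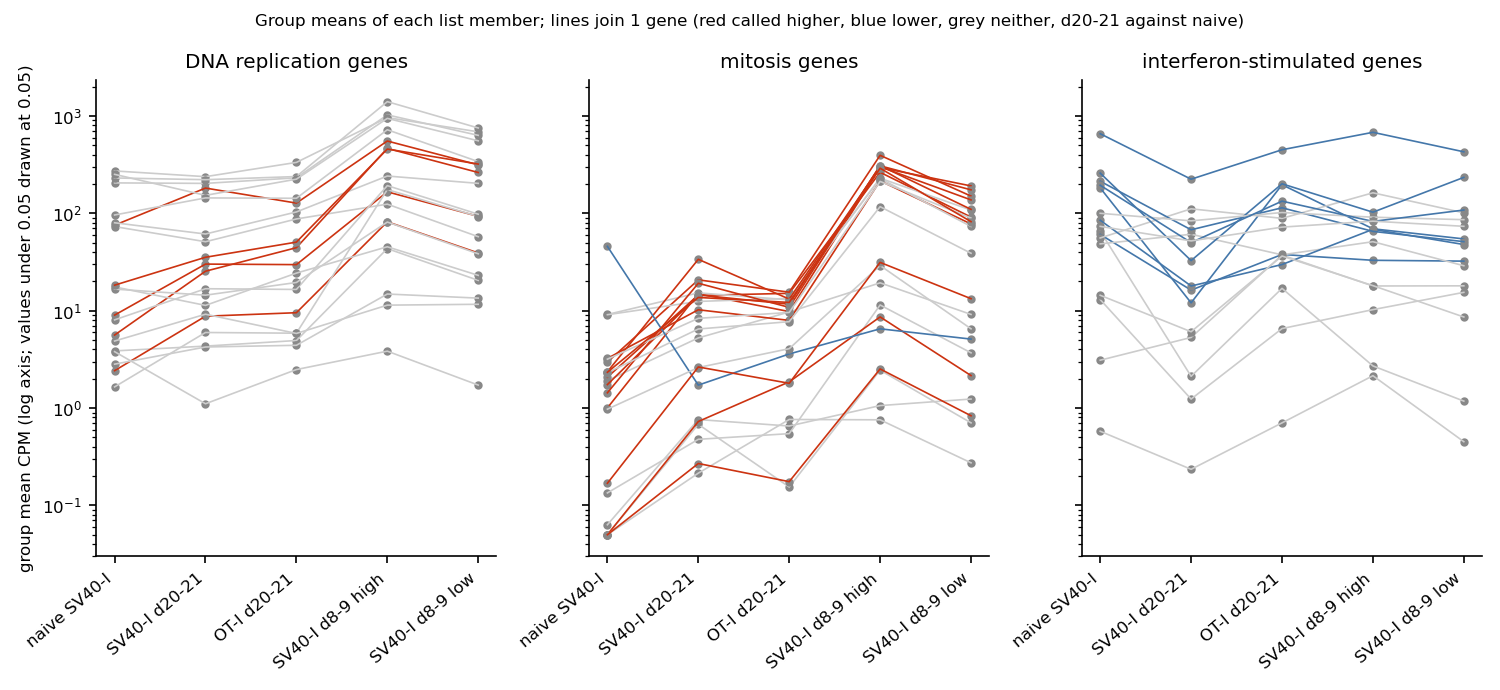
Group mean CPM (log axis) of each tested DNA replication, mitosis and interferon-stimulated gene in the 5 groups of 3 libraries; each line is 1 gene, red where called higher in late against naive cells, blue where lower and grey otherwise. The 11 mitosis genes called higher have their highest group mean in marker-high cells of days 8 to 9, as for Ccnb2 at 295 CPM, Kif23 is the mitosis gene called lower, and the called interferon-stimulated genes lie lower in late than in naive cells.

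Of 16 glycolysis genes 5 rose (median 0.31), among them Tpi1 (chromosome 6, 124810586 to 124814296), triosephosphate isomerase, from 127, 135 and 111 to 388, 439 and 453 CPM (1.78 ± 0.28, adjusted p = 7.46e-04). Pfkp, a phosphofructokinase subunit, rose by 0.82 ± 0.14, and Slc16a3, a lactate exporter, from 8.37, 3.41 and 4.34 to 39.5, 52.7 and 73.6 CPM (3.36 ± 0.72). The other 11 glycolysis genes did not pass. Of 18 oxidative phosphorylation genes 1 rose and 2 fell (median -0.19). That is 5.56% higher and 11.1% lower, beside 11.1 and 6.86% over all genes tested. Atp5b, of the ATP synthase, differed by -0.59 ± 0.17 (adjusted p = 0.0279). It lost its call without naive library 1, 2 or 3 or late library 2 or 3 (adjusted p from 0.0592 to 0.0994).

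Sterol and fatty acid synthesis genes gave 4 of 18 lower (median -0.84), or 2 without naive library 3 or late library 1. Sqle (chromosome 15, 59315077 to 59331192), squalene epoxidase, went from 34.3, 30.1 and 60.1 to 4.29, 6.62 and 4.04 CPM (-3.06 ± 0.39, adjusted p = 1.52e-04). Fdps, farnesyl diphosphate synthase, went from 29.6, 28.8 and 23.1 to 7.94, 9.30 and 10.3 CPM (-1.57 ± 0.24, adjusted p = 6.06e-04). Both enzymes of the mevalonate branch were lower in every late library than in any naive one. Of 10 amino acid transporters 2 rose and 1 fell (median -0.04), with 1 rise without naive library 2 or late library 2. The main counts are 20% higher and 10% lower, beside 11.1 and 6.86% over all genes tested. Slc1a5, a glutamine transporter, went from 10.5, 17.1 and 12.4 to 125, 70.4 and 49.9 CPM (2.62 ± 0.31, adjusted p = 1.03e-04). Slc43a1, a transporter of branched-chain amino acids, went from 18.5, 48.9 and 5.90 to 0, 0.0735 and 0.817 CPM (-6.35 ± 1.27, adjusted p = 0.00389).

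Interferon-stimulated genes were lower in late cells, 7 of 16 (median -1.60), and the other 9 did not pass. Usp18 (chromosome 6, 121245906 to 121270917), which removes ISG15 from proteins and blocks the type I interferon receptor, went from 238, 272 and 267 to 30.4, 35.3 and 32.4 CPM (-2.98 ± 0.35, adjusted p = 9.63e-05). Ifit3, an antiviral protein, went from 166, 167 and 215 to 9.08, 15.2 and 11.8 CPM (-3.92 ± 0.57, adjusted p = 4.25e-04). Isg15, a ubiquitin-like modifier, went from 56.1, 78.9 and 47.3 to 10.5, 21.8 and 16.5 CPM (-1.90 ± 0.42, adjusted p = 0.00756). Late and naive libraries did not overlap for these 3 genes. OT-I cells of the same days stood at 201 ± 20.2 CPM for Usp18 and 197 ± 66.3 CPM for Ifit3, above late SV40-I cells by 2.62 and 4.03 on the log2 scale (late minus OT-I -2.62, adjusted p = 5.05e-04, and -4.03, adjusted p = 7.91e-04).

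Promoter letters of 2 of these genes are shown because the interferon response element GAAANNGAA is the site that interferon-activated factors are known to read. In capitals are matches to it on either strand (3 in Ifit3 and 3 overlapping ones in Isg15), 1 AP-1 match (TGATTCA) in Ifit3 and 1 NFAT core (TGGAAA) in Isg15. The windows are the 160 bases before the start site in RefSeq on GRCm38.p6, at chr19:34583369-34583528 (plus strand) and chr4:156200819-156200978 (minus strand), 5′ to 3′ on the gene's strand.
Ifit3: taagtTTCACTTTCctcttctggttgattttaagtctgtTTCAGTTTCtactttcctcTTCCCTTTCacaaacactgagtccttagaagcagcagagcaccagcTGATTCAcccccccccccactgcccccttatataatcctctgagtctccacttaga
Isg15: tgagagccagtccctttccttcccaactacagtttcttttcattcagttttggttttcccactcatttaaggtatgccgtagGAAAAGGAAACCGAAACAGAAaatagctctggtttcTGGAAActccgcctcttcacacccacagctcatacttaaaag

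Of the 16 interferon-stimulated genes 12 had a promoter in the table and 8 of these held the motif, as did 3 of the 5 called members with a promoter. Over all genes called lower the motif occurred in 11.5%, over those called higher in 8.18% and over all tested genes in 9.06%.

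BCL2 family genes rose in 4 of 12 cases and fell in 1 (median 0.84). Bcl2l1 (chromosome 2, 152780668 to 152831728), which encodes anti-apoptotic BCL-XL, went from 57.1, 66.6 and 74.2 to 199, 289 and 232 CPM (1.86 ± 0.20, adjusted p = 4.63e-05). Bcl2l11, which encodes the death-promoting protein BIM, went from 28.6, 26.3 and 55.4 to 487, 445 and 729 CPM (3.91 ± 0.49, adjusted p = 1.36e-04), and Bid, another death promoter, rose by 1.15 ± 0.15. Members of opposite function were thus both higher. Mcl1, a survival gene, differed by -0.65 ± 0.20 (adjusted p = 0.0382), a call lost without any 1 of the 6 libraries (adjusted p from 0.0573 to 0.138).

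Of 13 DNA methylation and Polycomb genes 1 rose and 2 fell (median -0.22). That is 7.69% higher and 15.4% lower, beside 11.1 and 6.86% over all genes tested. Dnmt3b (chromosome 2, 153649450 to 153687730), a de novo DNA methyltransferase, went from 4.37, 3.47 and 3.69 to 31.6, 22.2 and 13.6 CPM (2.55 ± 0.40, adjusted p = 7.14e-04). Tet3, an enzyme that oxidises methylcytosine, went from 61.6, 69.2 and 83.4 to 18.7, 15.3 and 12.9 CPM (-2.19 ± 0.22, adjusted p = 3.11e-05), and Eed, a core subunit of PRC2, from 35.04, 31.5 and 31.6 to 11.2, 13.7 and 14.7 CPM (-1.31 ± 0.29). For each of the 3 the groups were apart, as they were for 20.1% (late above) and 17.6% (late below) of all genes tested. Dissociation and stress genes, read as a check on cell handling, gave 3 of 14 higher and 1 lower (median -0.06), with 1 rise without naive library 1 or 2. The main counts are 21.4 and 7.14% of that list. Atf3, a stress-induced factor, stood at up to 0.0759 CPM in naive and 0.695, 1.21 and 4.51 CPM in late cells (5.63 ± 1.13, adjusted p = 0.00346). Dnajb1, a chaperone gene, was lower by -0.95 ± 0.26 (adjusted p = 0.0214) and lost its call without naive library 1 or 3 or any 1 late library (0.0539 to 0.0730).

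The 8 largest rises with at least 20 CPM in late cells were Calcb, Mrc2, Csdc2, Tmprss6, Insrr, Atcay, Eml1 and Nr4a2. This ranking, that of the falls and that by mean CPM left out receptor and immunoglobulin segments, mitochondrial genes, clone-named loci and other-cell markers. Calcb (chromosome 7, 114718643 to 114723365), which encodes the neuropeptide beta-CGRP, had no naive count and stood at 209, 261 and 154 CPM in late libraries, at least 10317-fold higher. Mrc2, an endocytic collagen receptor, had none either and stood at 199, 235 and 168 CPM, at least 9909.5-fold higher. Csdc2, an RNA-binding protein gene, stood at 82.3, 193 and 111 CPM, at least 6575-fold higher. All 3 were thus read in every late library and in no naive one. OT-I cells held 0.0401 ± 0.0363 CPM of Calcb and 0.0154 ± 0.0135 CPM of Mrc2, and marker-high cells of days 8 to 9 97.1 ± 24.0 and 53.9 ± 73.3 CPM (SD, n = 3 each).

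Tmprss6 (chromosome 15, 78439667 to 78468634), a membrane serine protease known from hepatocytes, had 0.0190, 0 and 0 CPM in naive and 227, 143 and 239 CPM in late libraries. Its ratio was 29136, with a 95% counting interval of 5229 to 1150900. Hepatocyte markers, summing to 45.8, 1447 and 74.4 CPM in late libraries 1, 2 and 3, rose as well, and their part in the Tmprss6 value was not tested. Insrr, an orphan receptor of the insulin receptor family, was at least 1711-fold higher (35.9, 37.6 and 31.2 CPM in late cells) and had no count in OT-I libraries. Atcay was at least 1547-fold and Eml1, a microtubule-associated protein gene, at least 1402-fold higher.

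The 8 largest falls were Gabrr2, Slc6a19, Cyp2s1, Dntt, St8sia1, Pcsk1, Tnfrsf25 and Tdrp. Slc6a19 (chromosome 13, 73679745 to 73704865), a sodium-coupled transporter of neutral amino acids, went from 705, 663 and 1034 to 0.149, 0.0735 and 0.0645 CPM (-13.03 ± 1.56, adjusted p = 9.95e-05). Gabrr2, a GABA receptor subunit, went from 31.1, 34.1 and 21.1 CPM to no count, at least 1355-fold lower. Dntt, the terminal transferase of developing lymphocytes, went from 122, 100.4 and 139.5 to 0, 0.0184 and 0.0430 CPM, 5702 times lower (95% counting interval 1951 to 27652). St8sia1, a sialyltransferase, was 6643 times lower (1192 to 262420), and Pcsk1, a prohormone convertase, 5075 times lower (1736 to 24610). Cyp2s1, a cytochrome P450 gene, was 9215 times lower (1654 to 364030). Tdrp went from 451, 349 and 449 to 0.0248, 0.496 and 0.0215 CPM (-11.05 ± 1.18). In OT-I cells Dntt, Pcsk1 and Gabrr2 were also at 1.08 CPM or less, while Tnfrsf25 stood at 109 ± 8.80 CPM, above late SV40-I cells (late minus OT-I -12.64, adjusted p = 5.64e-05).

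Ranked by change in mean CPM, the called genes that gained most were Il2rb, Nkg7, Sh2d2a, Ccl5 and Pdcd1. Sh2d2a (chromosome 3, 87846755 to 87855722), the T cell specific adaptor that binds LCK, went from 431, 421 and 353 to 6244, 4609.5 and 6006 CPM (3.81 ± 0.26, adjusted p = 1.22e-06). Nkg7 went from 1176, 1803 and 778 to 6816, 8391 and 8857 CPM. Per kilobase of exon, the late level was highest of these 5 for Nkg7 (8776 CPM per kb), then Ccl5 (5174), Il2rb (2797), Pdcd1 (2095) and Sh2d2a (946). Those that lost most were Ccr7, Cd8b1, Eef1a1, Arhgdib and Flna. Flna (chromosome X, 74223461 to 74249820), filamin A of the actin cortex, went from 2398, 1812 and 3282 to 288, 537 and 470.1 CPM (-2.53 ± 0.36, adjusted p = 3.33e-04). Eef1a1, an elongation factor of translation, differed by -0.74 ± 0.19 (adjusted p = 0.0186). Its call was lost without naive library 2 or 3 or late library 1 (0.0515 to 0.0806). Arhgdib differed by -0.91 ± 0.24 (adjusted p = 0.0204), a call lost without naive library 1 or 2 or any 1 late library (0.0534 to 0.0812).

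The genes whose log2(CPM + 1) followed Tox most closely over the 15 libraries sorted from mice were Atxn10 (Pearson r = 0.962), Abcb9 (0.955) and Aldh7a1 (0.953), given as a description over 5 groups of 3. Abcb9, a peptide transporter of lysosomes, went from 283, 249.2 and 229 to 1558, 1688 and 2451 CPM (2.90 ± 0.29, adjusted p = 3.00e-05). Atxn10 rose by 0.83 ± 0.14, with 217, 199.7 and 217 against 352, 418 and 352 CPM, and Aldh7a1, an aldehyde dehydrogenase, by 1.16 ± 0.24. The 3 genes differed in size of rise although their profiles followed Tox.

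Late cells were also compared with the other lesion cells for the genes above. Over all genes tested, late SV40-I cells were called higher than OT-I cells for 805 (4.91%) and lower for 674 (4.11%), and higher than marker-high cells of days 8 to 9 for 289 (1.76%) and lower for 585 (3.57%). The counts against marker-high cells were 167 and 388 without late library 1, 142 and 339 without late library 2, 97 and 271 without late library 3, 188 and 473 without naive library 1, and 979 and 1269 with DESeq2. Those against OT-I cells were 527 and 464 without late library 1, and 1385 and 1124 with DESeq2. These comparisons share the late libraries with the comparison against naive cells. The marker-high libraries were not uniform. Library 3 lay nearest late cells for some genes, such as Lef1 (42.0, 48.7 and 3.04 CPM) and Mrc2 (7.26, 16.1 and 138 CPM). For others, such as Gzmb (2320, 3340 and 3810 CPM), it did not. For Tox, Pdcd1, Tigit, Ccl3, Ccl4 and Tnfrsf9 late cells lay above OT-I cells and did not differ from marker-high cells past the threshold (adjusted p from 0.0542 to 0.986).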

How the data were processed

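Each deposited table gives raw counts per gene of 1 library. Per the file headers, the authors obtained these counts with featureCounts 1.6.2, counting read pairs by gene name (GENCODE M17 annotation, build GRCm38). The submitters' processing notes also name FastQC, STAR and DESeq2, with no version given in the sources used here. RNA was amplified with SMART-Seq v4 and sequenced as paired ends, per the labels' protocols. The headers show no strand option and the protocols name no molecular identifiers, so overlapping genes cannot be told apart and intervals cover counting error only. Ifng (25.9% of exon bases), Fdps (26.7%), Spry1 (24.4%), Ccr9 (18.8%), Bid (17.7%), Klrb1c (13.9%) and Lef1 (13.7%) share most with other listed genes, and Klr, Cd244 and granzyme families have near-identical copies.

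All 15 libraries sorted from mice were fitted together in R 4.3.3 with edgeR 4.0.16 (TMM, filterByExpr, robust quasi-likelihood F test, a coefficient per group), leaving 16404 of 53656 genes, with Benjamini-Hochberg adjustment over all of them; cultured libraries stayed out. The method was tested on simulated data. Standard errors were worked back from the F statistic. Where a group had no count, the fold is a bound taken at 3 counts for that group; where it had 1 to 3, a ratio is given with its 95% counting interval.

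Named genes were Tox, the sort marker genes, the 2 members of each list with the smallest p among those called (1 in each direction where possible), the 8 largest rises and falls with at least 20 CPM, the 5 largest changes in mean CPM and the 3 genes most like Tox. The largest rises and falls also had to be called without overlap between the groups. Both rankings left out receptor and immunoglobulin segments, mitochondrial genes, clone-named loci and markers of other cells. A gene chosen by these rules is left out of the text. Other list members were chosen as examples after their values were seen. The comparison and the 23 gene lists were chosen with earlier results of these data known. Alternatives were another normalization, tool, filter and set of libraries, a replicate block, and leaving out each library. No replicate pair looked like 1 library deposited again (chi-square over degrees of freedom 106 to 303). Sequences came from RefSeq tables on GRCm38.p6.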

Additional observations from a re-analysis of the deposited data

Results flagged for a closer look

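Tox and Abcb9 lay above naive levels in late SV40-I cells and below them in OT-I cells of the same days. For Tox the difference between the groups of lesion cells was 5.12 on the log2 scale (edgeR adjusted p = 1.26e-05), made of 3.07 for SV40-I against naive cells and -2.05 for OT-I against naive cells (adjusted p = 0.00302 for the latter). For Abcb9 it was 4.18 (adjusted p = 8.39e-06), made of 2.90 and -1.28 (adjusted p = 0.0126 for the latter). Abcb9 was named for its likeness to Tox over these same libraries, so a shared pattern was built into its choice. Only genes examined for the text were screened for this flag, not all genes tested. The naive libraries are shared by both sides, and the groups also carry different receptors, so that antigen specificity cannot be told apart from the transgenic line.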

How the results depend on the processing

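Of 134 called genes examined, 127 kept their direction and call under every alternative in which they were tested. The other 7 include Lta, Atp5b, Mcl1, Dnajb1, Eef1a1 and Arhgdib. DESeq2 gave an adjusted p for 129 of the 134. The filter of 5 CPM in 3 libraries kept 133, and 131 remained without receptor segments, mitochondrial genes and other-cell markers. With DESeq2, 2639 genes were called higher and 1754 lower against naive cells. Other settings gave 1507 to 1819 higher and 979 to 1220 lower. Leaving out 1 of the 6 naive and late libraries gave 1269 to 1505 and 792 to 911, and no library of another group was left out singly. Against OT-I cells DESeq2 called 1385 higher and 1124 lower (527 to 745 and 464 to 626 leaving out 1 library). Against marker-high cells of days 8 to 9 it called 979 higher and 1269 lower, the higher calls were 171 with no filter on low counts and 457 with at least 5 CPM in 3 libraries, and leaving out 1 library gave 97 to 232 and 271 to 524. The cause of these shifts was not tested. Egr1, at 0.92 and not called, ranged from -0.023 (adjusted p = 0.990, without late library 1) to 1.30 (without late library 3) leaving out 1 library.

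The labels do not say whether equal replicate numbers pair the libraries, and the main fit held no term for them. Same-number correlations of naive and late libraries were small (0.0529, 0.0214 and 0.0816), and different-number ones ran from -0.0875 to 0.0145. Each library thus correlated best with its own number, a hint from the data and not the design. Whether equal numbers share a batch was not tested. With a replicate block 1662 genes were called higher and 1206 lower, and Mcl1 was lost (adjusted p = 0.0553). Scaling by library totals moved the share of higher calls from 61.9 to 57.8% and the median of all genes to -0.01. At these totals, differences between genes of a few counts were not detectable, and bounds for genes at 0 rest on depth.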
